A study of Menidia menidia with 24 samples.

Results

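The neurexin and neuroligin transcripts of the Atlantic silverside (Menidia menidia) described here were NRX2A (mme17589), NRX3A (mme05732) and 2 transcripts named NLGN3 (mme10774 and mme04203). They are 4 of the 20210 genes counted in the series and 4 of the 17262 that passed a filter on low counts, and each of the 4 passed it. They were chosen by their change in CH versus CC larvae, because symbols came from a shortened copy of the study's table, which held 1208 rows with a symbol, all of them transcripts that the study had called in that comparison. Neurexin and neuroligin transcripts outside these rows were not analysed here. The CH versus CC values are therefore a description without a test.

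RNA was sequenced from 24 whole larvae at 19 dpf, with 6 larvae in each of 4 groups named by parental and then offspring treatment. CC larvae had control parents and were reared under control conditions (100% DO and 600 µatm PCO2), and CH larvae had control parents and were reared under HypOA, a combination of hypoxia and acidification (35% DO and 2500 µatm PCO2). HC and HH larvae had HypOA-treated parents and were reared under control conditions and under HypOA, respectively. These are the levels in the labels, and the measured levels in the study's methods differ somewhat from them. The study reports that larvae reared under HypOA hatched later and were shorter when sampled. It proposes that their slightly earlier developmental stage may account for part of the expression differences. Larvae of equal age were therefore not matched in size or stage, and neither was used in the tests here. Parents were wild-caught fish, the HypOA parents met it only at night before spawning, and the offspring met it without daily cycles. Gametes were pooled within a parental treatment, so parental treatment and parental pool cannot be told apart. The pools also differed in the size of the females, which were on average longer and heavier in the control pool. Larvae of a group came from 3 rearing containers that the labels do not identify, so larvae were treated as independent and p-values may partly measure spread within containers.

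Neurexins are adhesion proteins of the presynaptic membrane, and neuroligins are their best known partners on the postsynaptic side. The pair spans the synaptic cleft. Inside the nerve terminal, neurexins bind scaffold proteins that sit near calcium channels and the release machinery. Inside the receiving cell, neuroligins bind scaffolds such as PSD-95 at excitatory and gephyrin at inhibitory synapses. In mammals each neurexin gene makes a long alpha and a short beta form from separate promoters, and neuroligin-3 is found at both excitatory and inhibitory synapses. NRX2A and NRX3A are protein entry names for neurexin-2-alpha and neurexin-3-alpha, NLGN3 for neuroligin-3, and NRX2B, described below as a relative, for neurexin-2-beta.

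Counted reads per larva ranged from 11688851 to 16120500 (median 12722156). Levels are given as CPM, counts relative to library size, scaled by TMM, and they compare larvae for 1 transcript but not transcripts with each other, since lengths were not used here. A member gathered between 25 reads (NRX3A in a CC larva) and 492 reads (NLGN3 mme10774 in an HH larva), so the low pair, NRX3A and NLGN3 mme04203, was measured less precisely than the other pair. Reads that fit several sites averaged 5.32% of all reads. Whether the NLGN3 transcripts are paralogues that share reads, and whether NRX2A and NRX2B or the NRX3A transcripts are pieces of 1 gene, was not analysed here, so the split of reads between them is uncertain. In whole larvae, fewer cells of a type and less RNA per cell cannot be told apart.

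NRX2A (mme17589) was lowest in CC, higher in HC and highest in CH and HH. Its level in CC ran from 11.8 through a median of 16.2 to 22.3 CPM. In CH it ran from 23.2 through 24.0 to 27.5 CPM. Every CH larva thus lay above every CC larva, and CH was also the least variable group, with a coefficient of variation of 7.09% against 22.9% in CC. A call in CH versus CC favours a small spread within these groups, and the difference in spread was not tested. The narrow CH range is therefore not taken as a trait of this transcript. In HC it ran from 15.8 through 18.7 to 22.5 CPM. In HH it ran from 20.6 through 24.1 to 26.2 CPM. The HH range overlapped those of HC and CC, although each HH larva exceeded the HC and the CC median.

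NRX3A (mme05732) had the same order of group means, CC, HC, HH and CH, but the ranges of all groups overlapped. CC larvae ran from 2.11 through a median of 3.58 to 5.20 CPM. CH larvae ran from 4.42 through 6.12 to 6.75 CPM. HC larvae ran from 3.84 through 4.35 to 5.93 CPM, and HH larvae from 4.25 through 5.43 to 6.24 CPM. The CC group was the most scattered, with a coefficient of variation of 33.2%, and its higher larvae (CC 5 and CC 6) reached the levels of the other groups. CC 5 and CC 6 were also the highest CC larvae in NRX2A.

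In NLGN3 (mme10774) the measured levels of the CC larvae lay close together. CC larvae ran from 16.6 through a median of 17.6 to 18.2 CPM, a coefficient of variation of 3.84%. Each level also carries counting error, and whether so low a spread over 6 larvae is lower than chance gives was not tested. It is therefore not taken as a trait of this transcript. CH larvae ran from 20.5 through 25.1 to 28.0 CPM. HH larvae ran from 19.2 through 27.3 to 34.4 CPM. Each CH and each HH larva lay above every CC larva. HC larvae ran from 17.3 through 23.9 to 27.2 CPM, with 1 larva (HC 6) inside the CC range. HH was the most variable group, since HH 5 was near the CC level and HH 6 was the highest of all larvae.

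The second NLGN3 (mme04203) was low in CC and similar in the other groups. CC larvae ran from 2.69 through a median of 3.81 to 4.65 CPM, and CH larvae from 5.04 through 5.38 to 7.19 CPM, with no overlap between these groups. HC larvae ran from 4.48 through 5.30 to 6.63 CPM. HH larvae ran from 3.76 through 5.72 to 6.23 CPM. The lowest HC and HH larvae lay within the CC range, and as for NLGN3 mme10774 the lowest HH larva was HH 5 and the highest HH 6.

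**Figure D1:**
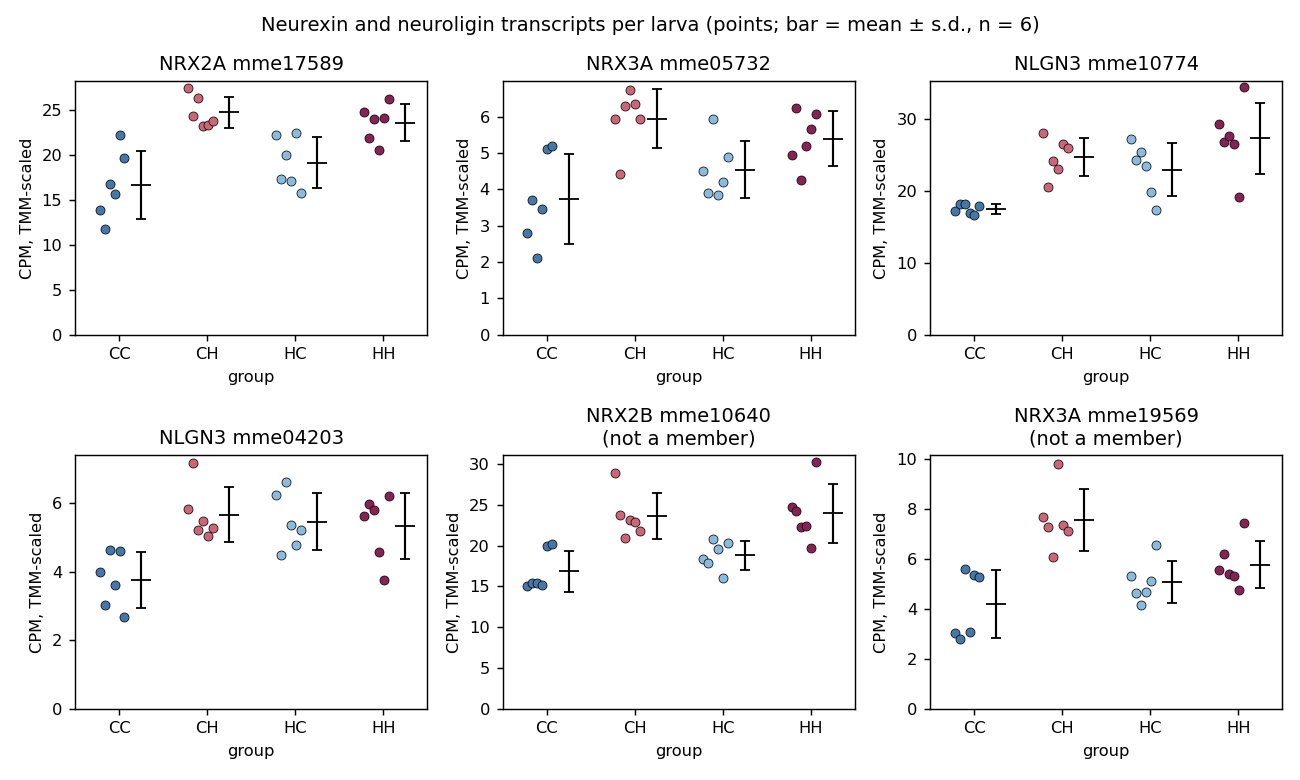
TMM-scaled CPM of each larva (points, 6 per group) with the group mean±s.d. (bars) for the members and for the related transcripts NRX2B and NRX3A mme19569; each vertical axis starts at 0. In NLGN3 mme10774 the CC larvae sit between 16.6 and 18.2 CPM, below every CH and HH larva, and in NRX3A mme05732 all groups overlap.

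Between CH and CC, the comparison the members were chosen on, the means of NRX2A were 24.7±1.75 and 16.7±3.81 CPM (mean±s.d., 6 larvae per group), a log2 fold change of 0.57±0.13 (±s.e.). NRX3A differed by 0.68±0.19 on that scale, from 3.73±1.24 in CC to 5.95±0.81 CPM in CH. NLGN3 mme10774 differed by 0.50±0.12, from 17.5±0.67 to 24.7±2.69 CPM. NLGN3 mme04203 differed by 0.59±0.17, from 3.76±0.81 to 5.68±0.79 CPM. All 4 were higher in CH, and the choice required a call in this comparison. In 3 of them every CH larva lay above every CC larva. Over all genes tested, 4.99% passed the test upwards in CH versus CC and 2.01% had every CH larva above every CC larva. The 861 upward calls were 482 without CC 2, 490 without CC 1 and 298 in a fit of those groups alone.

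The larvae of HypOA-treated parents do not enter the CH versus CC difference, and HH versus HC asks how rearing under HypOA moved the members in them. The study filtered and scaled all larvae together, and the members were chosen with earlier results of these data known. HH versus HC is therefore not fully independent of the choice. None of the 4 passed an FDR of 0.05 with edgeR's quasi-likelihood test, DESeq2 or limma-voom, where edgeR called 0.0232% of all genes. NRX2A was 23.6±2.03 CPM in HH and 19.2±2.84 in HC, a log2 fold change of 0.30±0.13 (edgeR, unadjusted p=0.0257, FDR=0.518, 95% interval 0.036 to 0.56). All 6 HH larvae exceeded the HC median. NLGN3 mme10774 was 27.4±4.93 CPM in HH and 22.96±3.68 in HC, a difference of 0.25±0.12 (edgeR, unadjusted p=0.0454, FDR=0.594, interval 0.0023 to 0.50), and 5 of 6 HH larvae exceeded the HC median. These 2 of 4 members were past an unadjusted p of 0.05, upwards, as were 3.82% of all genes.

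The remaining members had no unadjusted p below 0.05 in HH versus HC. NRX3A was 5.40±0.75 CPM in HH and 4.54±0.78 in HC (log2 fold change 0.25±0.19, FDR=0.807, interval -0.14 to 0.64). NLGN3 mme04203 was 5.34±0.96 in HH and 5.46±0.83 in HC (-0.033±0.16, FDR=0.988, interval -0.37 to 0.31), and its sign turned when single larvae were left out. Thus 3 of 4 members had positive values, with a median of 0.25 against -0.0018 over all genes tested. None had every HH larva above every HC larva, which 0.4% of all genes had.

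HH versus CC compares larvae for which both generations met HypOA with larvae for which neither did, and it shares its CC larvae with the comparison that chose the members. Low values in those CC larvae favour a rise here. The counts below are therefore not independent evidence, and the shares of all genes are not like measures for chosen members. In edgeR's test 2 of the 4 members rose, where 5.21% of all genes did so. NLGN3 mme10774 rose by 0.64±0.12 on the log2 scale (FDR=0.00237), that is 1.56-fold, and it was the single member in which every HH larva lay above every CC larva, as in 2.87% of all genes. NRX2A rose by 0.50±0.13 (FDR=0.0149), 1.42-fold, in 6 of 6 HH larvae relative to the CC median. Both calls held in each of 32 other settings, which rest on the same choice of members. NRX3A (0.54±0.19, FDR=0.0702) and NLGN3 mme04203 (0.50±0.17, FDR=0.0565) had log2 values of the same size but larger errors and did not pass. DESeq2 put both below the threshold (FDR=0.0439 and 0.0423), as did edgeR without CC 5 (FDR=0.033 and 0.0388). NRX3A also passed with limma-voom (FDR=0.0417) and without CC 6 (FDR=0.0368), and NLGN3 mme04203 without CC 3, CH 2 or HH 5 (FDR=0.0382, 0.0493 and 0.0288). NRX3A thus passed in only 4 and NLGN3 mme04203 in only 5 of the 32 other settings. Their FDR reached 0.144 and 0.136 when single larvae were left out.

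HC versus CC asks whether treatment of the parents alone went with a change, and it too shares the CC larvae. None of the members passed the test in edgeR, DESeq2 or limma-voom, and edgeR called 0% of all genes. Both NLGN3 transcripts had an unadjusted p below 0.05 with higher values in HC, as had 6.9% of all genes. NLGN3 mme04203 had a log2 fold change of 0.53±0.17 (edgeR, unadjusted p=0.00352, FDR=0.176) and NLGN3 mme10774 one of 0.39±0.12 (unadjusted p=0.00349, FDR=0.176). The neurexins were closer to zero, at 0.20±0.13 for NRX2A (FDR=0.498) and 0.29±0.19 for NRX3A (FDR=0.523). The neuron transcripts described below had a median of 0.37 in HC versus CC, so higher values in HC were not particular to the neuroligins. None of the 4 had every HC larva above every CC larva, which 0.556% of all genes had.

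Averaged over both rearing treatments, the effect of parental treatment ((HC+HH)/2 against (CC+CH)/2) does not hold the difference that chose the members. None of the 4 passed it with edgeR, DESeq2 or limma-voom, where edgeR called 0.649% of all genes. NLGN3 mme10774 came nearest, with a log2 value of 0.27±0.085 (edgeR, unadjusted p=0.00426, FDR=0.113), and was the single member with an unadjusted p below 0.05, where 8.64% of all genes had one upwards. NLGN3 mme04203 had 0.22±0.12 (FDR=0.326), NRX2A 0.068±0.090 (FDR=0.747) and NRX3A 0.074±0.13 (FDR=0.826).

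Within HypOA rearing the parental treatments were near each other in every member. HH versus CH log2 values were -0.068±0.13 for NRX2A, -0.14±0.18 for NRX3A, 0.14±0.12 for NLGN3 mme10774 and -0.087±0.16 for NLGN3 mme04203, with FDR from 0.606 to 0.846. No member passed the test with edgeR, DESeq2 or limma-voom, none had an unadjusted p below 0.05 with edgeR, and edgeR called 0.0174% of all genes. The 95% intervals of these differences lay between -0.52 and 0.39. This comparison and the next share the CH larvae with the choice of the members.

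CH versus HC sets larvae that met HypOA themselves beside larvae of treated parents. No member passed the test with the 3 tools, and edgeR called 0.29% of all genes. The neurexins were higher in CH, NRX2A by 0.37±0.13 (edgeR, unadjusted p=0.00762, FDR=0.170) and NRX3A by 0.39±0.19 (unadjusted p=0.0469, FDR=0.325). An unadjusted p below 0.05 upwards was seen in 7.45% of all genes. In NRX2A every CH larva lay above every HC larva, as in 0.765% of all genes. The neuroligins were nearly level, at 0.11±0.12 for NLGN3 mme10774 (FDR=0.711) and 0.054±0.16 for NLGN3 mme04203 (FDR=0.907).

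The interaction asks whether the response to HypOA rearing differed between offspring of treated and of control parents, (HH-HC)-(CH-CC), and it holds the comparison that chose the members. That comparison, in which all 4 members were higher in CH, is subtracted, so the choice itself favours negative values. All 4 values were negative and none passed the test with edgeR, DESeq2 or limma-voom, with 0% of all genes called by edgeR. NLGN3 mme04203 had the lowest value, -0.62±0.23 on the log2 scale (edgeR, unadjusted p=0.013, FDR=0.373). It was the single member with an unadjusted p below 0.05, where 5.61% of all genes had one downwards. NRX3A followed at -0.43±0.26 (FDR=0.569). NRX2A had -0.27±0.18 (FDR=0.596) and NLGN3 mme10774 -0.25±0.17 (FDR=0.619). The share of 5.61% covers genes that were not chosen on CH versus CC, so it is not a like measure for the members. All 15 neuron transcripts described below, which also rose in CH versus CC, had negative interaction values. Of these, 11 had an unadjusted p below 0.05 with edgeR.

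**Figure D2:**
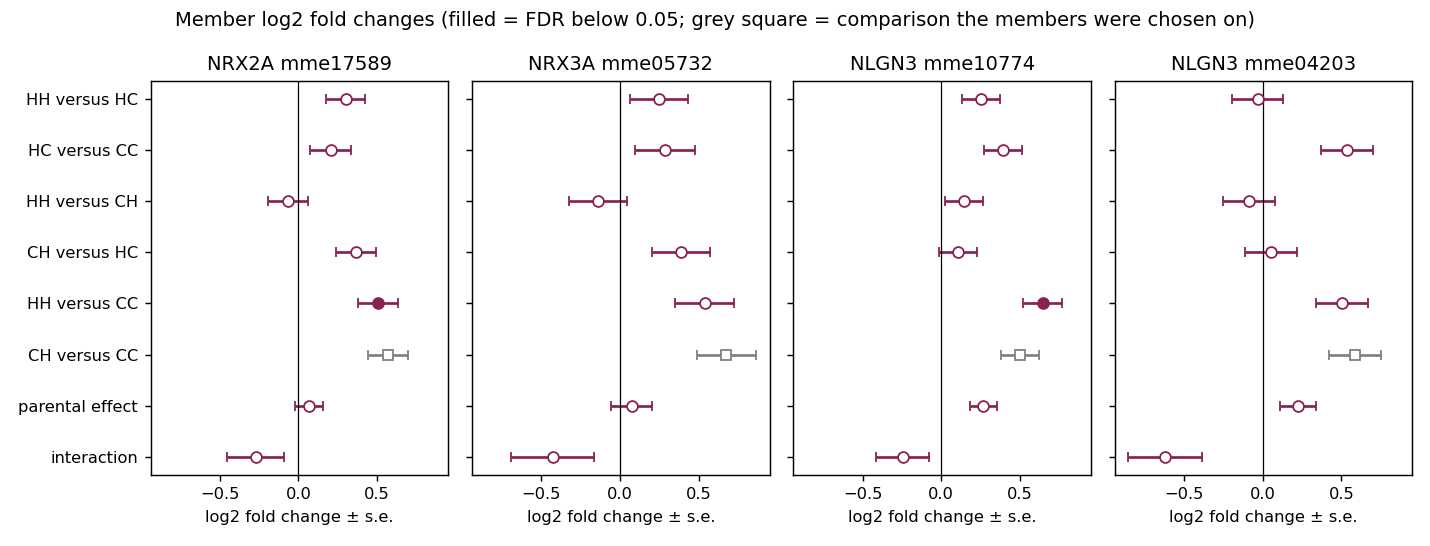
Log2 fold change±s.e. of each member in each comparison, with filled circles for FDR below 0.05 and grey squares for CH versus CC, on which the members were chosen. The filled circles are NRX2A and NLGN3 mme10774 in HH versus CC, and the values of NLGN3 mme04203 run from -0.62 in the interaction to 0.59 in CH versus CC.

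NRX2B (mme10640) and a second NRX3A (mme19569) were the other transcripts with neurexin symbols among those rows, which came from the same CH versus CC calls. NRX2B was 16.9±2.49 CPM in CC and 23.6±2.81 in CH larvae, against 18.8±1.75 in HC and 23.95±3.59 in HH. Like NRX2A it rose in HH versus CC, by 0.51±0.11 (FDR=0.00781). In HH versus HC it had the smallest unadjusted p of the 6 family transcripts (0.35±0.11, edgeR, unadjusted p=0.00535, FDR=0.328). NRX3A mme19569 was 4.18±1.35 CPM in CC and 7.55±1.23 in CH larvae, against 5.07±0.83 in HC and 5.77±0.93 in HH larvae. Its mean was highest in CH, with an HH versus CC value of 0.47±0.19 (FDR=0.108). Neither its HH versus CH value of -0.39±0.18 (FDR=0.330) nor its interaction of -0.67±0.26 (FDR=0.389) passed.

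The log2 ratio of the NLGN3 transcripts, mme10774 over mme04203, was 2.36±0.13 in HH and 2.07±0.24 in HC (mean±s.d.). The difference of 0.29 had a two-sided exact permutation p of 0.026, which became 0.0779 after adjustment over the 3 pairs compared. The ratio of the NRX3A transcripts (0.067, exact p=0.699) and of NRX2A to NRX2B (-0.031, exact p=0.833) differed less between HH and HC.

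Whether members deviate together among larvae of 1 group was not used in choosing them. After each larva was centred on its group mean, the 6 pairs of members had Pearson's r between -0.23 and 0.32 with a median of 0.22 over 24 larvae, and no pair passed a permutation test within groups. The highest were NRX2A with NRX3A (r=0.32, permutation p=0.312, Spearman's rho=0.26, p=0.285) and the NLGN3 pair (r=0.32, p=0.146, rho=0.22, p=0.314), with adjusted permutation p of 0.460 for both r and 0.575 for both rho. Within the single groups of 6 larvae, r of the NLGN3 pair ran from -0.67 in CH to 0.88 in HH, and that of NRX3A with NLGN3 mme04203 from -0.90 in CH to 0.73 in HC, so each pooled r averages groups of opposite sign. The value of -0.90 leans on CH 2, which lay apart from the other CH larvae in both transcripts (4.42 CPM in NRX3A and 7.19 in NLGN3 mme04203). Without the 2 larvae farthest from the median of the first transcript, the pooled r was 0.35 for NRX2A with NRX3A and 0.30 for the NLGN3 pair. The lowest was NRX3A with NLGN3 mme04203 (r=-0.23, permutation p=0.384, rho=-0.16, p=0.504), which became -0.056 without 2 larvae. Of all genes tested, 14.2% had an r with NRX2A at least as high as that of NRX3A, and 11.99% had one with NLGN3 mme10774 at least as high as that of the other NLGN3.

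Other proteins that bind neurexins or neuroligins were followed through a list of 6 ligands. This list and the ones below hold only transcripts of those rows, called in CH versus CC, and are not complete. A change there is thus fixed for each of them, in either direction. Through the shared CC larvae, their counts in HH versus CC are not independent evidence. In HH versus CC 4 of the 6 ligands rose and none fell, where 5.21% of all genes rose, with a median log2 value of 0.61 against -0.022 over all genes tested. LRRT2 (mme04246), a postsynaptic leucine-rich repeat protein that binds neurexins, had 7.13±1.89 CPM in CC larvae, 13.9±1.19 in CH, 10.6±1.07 in HC larvae and 15.2±1.66 in HH, and rose by 1.09±0.14 in HH versus CC (FDR=0.000101). CAH10 (mme16871), a carbonic anhydrase-related protein that binds neurexins in mammals, rose by 1.16±0.25 (FDR=0.00566) from 0.91±0.29 to 2.02±0.48 CPM. CBLN2 (mme12043), a secreted cerebellin that joins neurexins to delta-type glutamate receptors, rose by 0.64±0.14 (FDR=0.00726) from 12.8±2.604 to 19.996±2.95 CPM. LRRT2 and CAH10 thus had larger log2 values in HH versus CC than any member. CAH10 rests on few reads, with 0.51 to 1.18 CPM in CC larvae, so its value is less certain.

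In HH versus HC no ligand passed with edgeR and 2 of 6 had an unadjusted p below 0.05, as had 3.82% of all genes upwards. All 6 values were positive (median 0.27). LRRT2 had 0.51±0.14 (edgeR, unadjusted p=0.000813, FDR=0.188), CAH10 0.54±0.24 (FDR=0.554) and CBLN2 0.17±0.14 (FDR=0.837). In HC versus CC none of the 6 passed, and 4 had an unadjusted p below 0.05, as had 6.9% of all genes upwards.

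Scaffold and release-site proteins on the neurexin side were represented by 14 transcripts. In HH versus CC 10 of them rose and none fell (median 0.52), where 5.21% of all genes rose. LIN7C (mme00225), a part of the complex that links neurexins to channels and vesicles, rose by 0.52±0.076 (FDR=0.000314) from 36.3±3.27 CPM in CC to 52.1±2.96 in HH. CAC1B (mme11177), the pore of N-type calcium channels, rose by 0.76±0.13 (FDR=0.00144) from 8.29±1.33 to 14.1±2.99 CPM. PCLO (mme02274), the active zone scaffold piccolo, rose by 0.88±0.16 (FDR=0.00224) from 41.3±5.79 to 76.1±14.98 CPM. In HH versus HC no transcript of this list passed with edgeR, 8 of 14 had an unadjusted p below 0.05 (3.82% of all genes upwards) and 13 had positive values (median 0.28). LIN7C had 0.29±0.076 there (edgeR, unadjusted p=0.000921, FDR=0.188).

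On the neuroligin side the list held 14 scaffold transcripts, of which 11 rose and 3 fell in CH versus CC, where they were drawn. In HH versus CC 7 of the 14 rose and none passed downwards (median 0.40), where 5.21% of all genes rose. Of the 14 values there 11 were positive, and the lowest was -0.26. DLG1L (mme09150), a relative of PSD-95, rose by 0.52±0.099 (FDR=0.00260) from 20.8±1.42 to 29.9±2.68 CPM. DLG4 (mme10686), PSD-95 itself, rose by 0.58±0.12 (FDR=0.00393) from 34.97±5.75 to 52.1±3.51 CPM. BEGIN (mme09786), a protein that binds PSD-95, rose by 0.79±0.18 (FDR=0.00718) from 5.14±1.11 to 8.86±1.37 CPM. Without HH 6, 4 of the 14 passed. In HH versus HC none passed with edgeR, 5 had an unadjusted p below 0.05 (3.82% of all genes upwards) and 13 had positive values (median 0.17).

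Of 23 other synaptic adhesion transcripts, 21 rose and 2 fell in CH versus CC, where they were drawn. In HH versus CC 15 rose and none passed downwards (median 0.50), where 5.21% of all genes rose. Of the 23 values there 21 were positive, and the lowest was -0.60. None passed in HH versus HC, where 10 had an unadjusted p below 0.05 (3.82% of all genes upwards). For the effect of parental treatment edgeR called 0.649% of all genes. Of the family and synaptic lists, AMGO1 (mme07589), a leucine-rich repeat adhesion protein, was the single transcript to pass for it. It had 11.4±2.18 CPM in CC and 16.1±1.498 in CH larvae, against 16.6±2.06 in HC and 22.9±4.196 in HH larvae, a parental effect of 0.52±0.093 on the log2 scale (FDR=0.0214). Leaving out CC 2, HC 2, HH 4 or HH 6 raised its FDR to between 0.0508 and 0.0530.

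**Figure D3:**
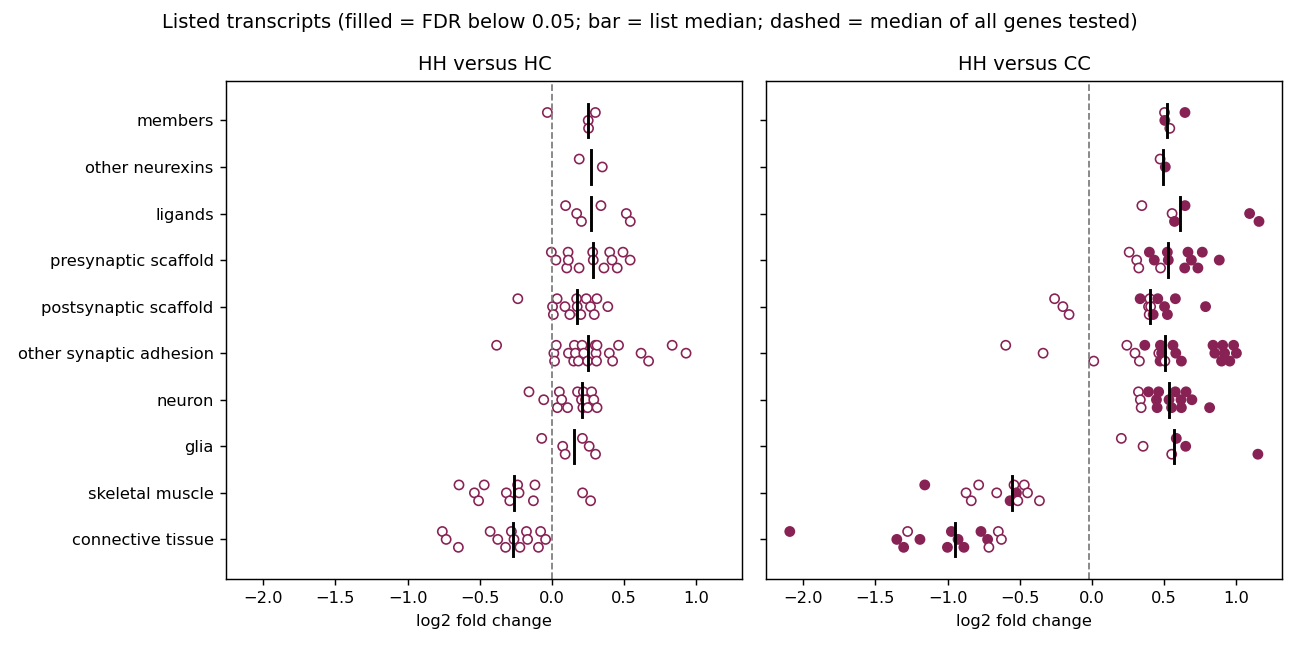
Log2 fold change of listed transcripts in HH versus HC (left) and HH versus CC (right), grouped by list. The exocrine pancreas list is not shown. Filled circles mark FDR below 0.05, black bars list medians and the dashed line the median of all genes tested. No circle is filled on the left, while on the right the 4 members lie between 0.50 and 0.64 and 10 of 14 presynaptic scaffold transcripts are filled.

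Markers of neurons moved in the same direction as the members. Of 15 neuron transcripts, among them SN25A, the vesicle fusion protein SNAP-25, 12 rose and none fell in HH versus CC (median 0.53), where 5.21% of all genes rose. None of the 15 passed in HH versus HC with edgeR, where 3 had an unadjusted p below 0.05 (median 0.20), as had 3.82% of all genes upwards. In HC versus CC none passed with edgeR either, and all 15 values were positive (median 0.37). There 14 had an unadjusted p below 0.05, as had 6.9% of all genes upwards. The summed level of the list ran from 624 to 950 CPM in CC, 1046 to 1253 in CH, 881 to 1051 in HC and 986 to 1287 in HH, and no neuron marker was at 0 in any larva. The members were also divided by this sum, a comparison added after the data were seen. Members and neuron markers were both drawn from calls in CH versus CC, where all 15 markers rose. Similar ratios in CC and CH therefore follow in part from that choice, as do those in CC and HH through the shared CC larvae. The log2 ratio of NRX2A to the neuron list was -5.51±0.11 in CC larvae, -5.53±0.11 in CH, -5.66±0.19 in HC larvae and -5.52±0.098 in HH. For NLGN3 mme10774 it was -5.41±0.27, -5.53±0.14, -5.41±0.25 and -5.32±0.20 in the same order. In HH versus HC the ratios of the 4 members differed by -0.20 to 0.15. Their exact permutation p, adjusted over the 6 family transcripts, was 0.212 or more. NRX2B, not a member, had the largest difference of the 6, 0.18 (exact permutation p=0.0346, adjusted p=0.208). How far the neuron list accounts for the members' change was not tested.

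**Figure D4:**
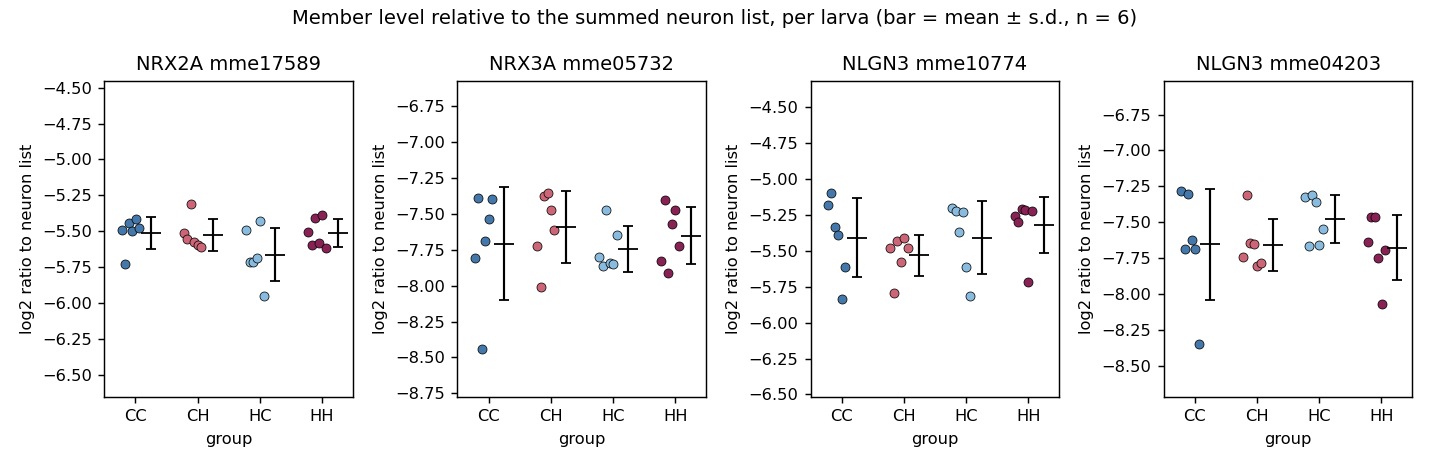
Log2 ratio of each member's CPM to the summed CPM of 15 neuron transcripts, per larva (points) with the group mean±s.d. (bars, 6 larvae per group); each vertical axis spans the same length of the log2 scale. The group means of NRX2A lie between -5.66 and -5.51, and the groups of every member overlap.

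Of 6 glial transcripts, 3 rose and none fell in HH versus CC, where 5.21% of all genes rose, with summed levels of 287 to 383 CPM in CC and 433 to 628 in HH. For the effect of parental treatment edgeR called 0.649% of all genes. Among the 6 glial transcripts, MYPR (mme10773), the myelin proteolipid protein, and HECAM (mme10307), an adhesion protein of glia, passed for it, at 0.55±0.13 (FDR=0.0428) and 0.57±0.13 (FDR=0.0413). These averages were uneven between rearings. MYPR had 0.83±0.18 in HH versus CH (FDR=0.111) and 0.27±0.18 in HC versus CC (FDR=0.519). HECAM had 0.30±0.17 in HH versus CH (FDR=0.431) and 0.85±0.18 in HC versus CC (FDR=0.128). Neither interaction passed (FDR=0.443 for MYPR and 0.442 for HECAM). MYPR was 14.2±4.37 CPM in HC and 7.62±1.498 in CH, a CH versus HC value of -0.90±0.18 (FDR=0.0336). It was the single glial transcript to pass there, where edgeR called 0.29% of all genes. MYPR was also lower in CH than in CC (11.7±1.24 CPM), unlike the other glial transcripts, in the comparison its list was drawn from. These calls lay near the threshold. MYPR passed for the parental effect in 10 of 31 other settings and in CH versus HC in 22 of 32, and HECAM in 16 of 31.

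Listed transcripts of muscle, connective tissue and exocrine pancreas moved the other way. All 12 muscle, all 14 connective tissue and all 12 pancreas transcripts fell in CH versus CC, where they were drawn. The lists thus held no transcript that rose there. Their direction in HH versus CC follows in part from that choice, through the shared CC larvae. The study reports higher myoglobin in larvae reared under HypOA, and the muscle list did not hold myoglobin. In HH versus CC 3 of 12 muscle, 10 of 14 connective tissue and 12 of 12 pancreas transcripts fell and none rose (medians -0.55, -0.95 and -4.08), where 3.59% of all genes fell. The count for muscle was 1 without CC 2, that for connective tissue 6 without CC 1, and that for pancreas 3 with limma-voom. Their summed levels in CC and HH were 4859 to 7666 and 2265 to 5525 CPM for muscle, 3971 to 9607 and 2143 to 4313 CPM for connective tissue, and 28.5 to 1279 and 12.9 to 28.6 CPM for pancreas. In HH versus HC no transcript of these lists passed with edgeR, where 0.0232% of all genes did. There 2 of the 12 muscle values were positive, and all 14 connective tissue and all 12 pancreas values were negative (medians -0.27, -0.27 and -1.80). A pancreas transcript was at 0 in at least 1 larva of CH, HC and HH, whereas no muscle or connective tissue marker was at 0. RYR1 (mme19877), the calcium release channel of muscle, had a CH versus HC value of -1.22±0.26 (54.3±13.6 against 126.7±60.6 CPM, FDR=0.042) and passed in 18 of 32 other settings. It was the single transcript of the 12 in the muscle list to pass in CH versus HC, where edgeR called 0.29% of all genes. Another RYR1 transcript of that list (mme10654) did not pass. The part of these tissues, and of larval size and stage, in the members' values was not tested.

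The transcripts whose levels over the 24 larvae most resembled those of each member were named by Pearson's r of log2 CPM, a description that includes the differences between groups. NRX2A was nearest to mme13517, which has no symbol in the sources used (r=0.94), to FSTL4 (mme10345, a follistatin-related protein, r=0.91) and to mme09983 (r=0.89). For example, mme13517 had 30.2±5.83 CPM in CC and 42.3±1.32 in CH larvae, against 35.4±4.10 in HC and 40.9±5.02 in HH larvae. It was picked for its likeness to NRX2A, so the shared group order and narrow CH group follow from the pick and are no separate result.

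NRX3A was nearest to STXB5 (mme15788, the syntaxin-binding protein tomosyn, r=0.91), CSRN3 (mme08165, r=0.89) and MAGI1 (mme07276, a scaffold, r=0.88). STXB5 had 25.8±7.17 CPM in CC larvae, 39.9±1.23 in CH, 30.4±3.09 in HC larvae and 39.8±4.29 in HH. NLGN3 mme10774 was nearest to VIAAT (mme03034, the transporter that fills vesicles with GABA and glycine, r=0.89), RAC3 (mme16959, a small GTPase, r=0.89) and N2F1A (mme01292, a nuclear receptor, r=0.88). VIAAT had 16.4±1.09 CPM in CC and 22.2±2.63 in CH larvae, against 20.0±3.51 in HC and 24.4±4.10 in HH larvae. NLGN3 mme04203 had lower likeness, to TSN7 (mme08414, a tetraspanin, r=0.83), CHST1 (mme18816, a sulfotransferase, r=0.81) and mme00344 (r=0.81). The number of genes with r above 0.8 was 121 for NRX2A, 34 for NRX3A, 60 for NLGN3 mme10774 and 4 for NLGN3 mme04203, and the pair with fewer reads had the smaller numbers.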

How the data were processed

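RNA was extracted from single whole larvae and sequenced as directional libraries. The authors trimmed the reads, aligned them with STAR 2.6.1d to a published Menidia menidia genome and deposited raw HTSeq 0.11.1 counts per transcript entry, without normalization; the name of its build and the counting options for strand and overlap are not given in the sources read. The 20651 entries were summed to 20210 genes, and library sizes and tests exclude the unassigned classes, which averaged 20.8% (outside annotated features), 5.32% (more than 1 site) and 0.563% (ambiguous) of a larva's reads. Symbols came from a shortened copy of the study's supplementary table, whose fold changes and p-values were not used; no annotation at hand matched the gene identifiers, so no sequences or positions are given.

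Counts of all 24 larvae entered 1 edgeR 4.0.16 quasi-likelihood fit (legacy form, R 4.3.3) with 1 coefficient per group, after filterByExpr (minimum count 10, minimum total 15) and TMM scaling. The Benjamini-Hochberg FDR was taken over 17262 genes at 0.05. Errors of log2 fold changes are the size of the change divided by the square root of F, and 95% intervals use Student's distribution with 20 degrees of freedom. Log2 CPM values for correlations have a prior count of 2, and permutation tests of correlations drew 100000 orders within groups. Alternatives were DESeq2 1.42.0, limma-voom (limma 3.58.1), RLE factors, other filters, the newer quasi-likelihood form, fits of the compared groups alone, the replicate number as a block and each larva left out. Their use for listed genes and counts, and the ratios to the neuron list, were added after seeing the data. The code was tested on simulated counts.

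The members and lists were chosen with earlier results of these data known. Text names the members, the other neurexin transcripts, listed genes that passed in a comparison other than CH versus CC and HH versus CC, the 3 ligand, presynaptic and postsynaptic genes with the smallest FDR in HH versus CC, and the 3 genes most like each member; SN25A was named as an example after its values were seen.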

Additional observations from a re-analysis of the deposited data

Results flagged for a closer look

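Among 24 sets of 6 larvae (6 neurexin and neuroligin transcripts in 4 groups), 3 held a larva whose gap to its nearest neighbour was large for the range of its group, and chance gives about 1 in 20. NRX3A mme05732 was 4.42 CPM in CH 2, where the next larva had 5.93. NLGN3 mme04203 was 7.19 CPM in the same larva, CH 2, where the next had 5.84. NRX2B mme10640 was 28.96 CPM in CH 1, where the next had 23.8. All 3 lay in CH, a group that took part in choosing the transcripts.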

How the results depend on the processing

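The number of members called was the same under every alternative in HH versus HC, HC versus CC, HH versus CH, CH versus HC, the interaction and the parental effect (0 in each). In HH versus CC DESeq2 gave 4, limma-voom 3, edgeR without CC 5 gave 4, leaving out single larvae 2 to 4, and the other settings 2. Log2 values changed sign in 7 instances when 1 larva was left out, each within 0.06 of zero. NLGN3 mme04203 in HH versus HC ran from -0.083 to 0.050, NLGN3 mme04203 in CH versus HC from -0.024 to 0.12, and NRX2B in HH versus CH from -0.059 to 0.089. The replicate block changed no call of a member (2 of 4 in HH versus CC, 0 elsewhere) and gave a median within-group r of 0.26 against 0.22. Replicate numbers of different groups did not deviate together (mean r of -0.014 over 36 same-number pairs against 0.0027, with 5 above 0.1). Of the 5, 4 were between CH and HC (0.14 to 0.24), where the pair numbered 6 had -0.16, so the numbers were not taken to pair larvae. MYPR and RYR1 in CH versus HC (FDR=0.0636 and 0.063) and MYPR and HECAM in the parental effect (0.0872 and 0.055) were lost with the block. Leaving out single larvae moved their FDR to between 0.0172 and 0.0752 (MYPR, CH versus HC), 0.0195 and 0.0971 (RYR1), 0.0282 and 0.0823 (MYPR, parental effect) and 0.0242 and 0.0739 (HECAM). Over all genes, CH versus CC gave 1597 calls, 544 in a fit of those groups alone and 849 (without CC 1) to 2054 (without CC 3) without single larvae. HH versus CC gave 1520 calls, 2060 with DESeq2 and 821 without HH 6, CH versus HC gave 50, 355 with DESeq2, 30 with limma-voom, 23 in a fit of those groups alone, 18 with the block and 11 to 173 without single larvae, and the parental effect gave 112, 486 with DESeq2, 39 with the block and 5 (without HH 6) to 276 (without CC 1). HH versus HC gave 4 calls, 64 with DESeq2 and 14 in a fit of those groups alone, HC versus CC 0 (2275 genes at an unadjusted p below 0.05) and 137 with DESeq2, HH versus CH 3 and 229 with DESeq2, and the interaction 0 (1845) and 2 with DESeq2. Calls among pancreas transcripts in HH versus CC fell from 12 to 3 with limma-voom, and among muscle transcripts ranged from 1 to 7 without single larvae. With 25 to 101 reads per larva, NRX3A mme05732 and NLGN3 mme04203 had standard errors of 0.16 to 0.19 on the log2 scale in the comparisons of 2 groups, and this error holds spread between larvae as well as counting error.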
